A study of Mus musculus with 24 samples.

Results

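The mRNA of 60 mouse genes of mitosis was followed in activated splenic B cells that had lost Spt5 and in their controls. The genes were taken by name from a list of cyclins, mitotic kinases, kinetochore and spindle proteins, kinesins, cytokinesis factors and condensin subunits, and each of the 60 genes matched 1 row among the 14106 genes of the deposited count table. Sgo1 was matched under its alias Sgol1. All 60 passed the filter on low counts and were tested, among 12024 genes tested in all. The rule takes names alone and uses no measured value, but the list was chosen with earlier results of these data known.

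The Spt5-depleted group held 3 libraries of cells of the genotype Supt5hFl/- Rosa26ERT2-cre/+, in which 1 copy of the Spt5 gene is floxed, the other is null, and a tamoxifen-activated Cre recombinase is expressed from the broadly active Rosa26 locus. The WT group held 3 libraries of Rosa26ERT2-cre/+ cells, which have the recombinase but neither altered allele. Both groups were stimulated with interleukin 4 and lipopolysaccharide for 28 h and then received 2 µM 4-hydroxytamoxifen for 32 h, so that cells were collected after 60 h of activation. Since WT cells lack the null allele, its effects and those of the induced deletion cannot be told apart. The labels give neither the age nor the sex of the mice, call the cells mature in one place and immature in another, and do not say whether libraries of a group came from different mice, so p-values measure the spread between libraries, which may be technical.

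Total counts lay between 17306549 and 21441575 in the Spt5-depleted libraries and between 23340978 and 25649611 in the WT libraries. Supt5, the targeted gene, had 10.55, 9.18 and 13.6 CPM (counts scaled to TMM-corrected library size) in the Spt5-depleted libraries, against 160, 160 and 192 CPM in WT, a log2 fold change of -3.94 ± 0.14 (SE; edgeR adjusted p = 1.26e-10). The RNA Xist was at 1.00 to 1.73 CPM in Spt5-depleted libraries and at 468 to 915 CPM in WT, and the Y-linked Ddx3y had 2569 counts over the 3 Spt5-depleted libraries and 1 count over the 3 WT libraries, so genotype and these signs of sex cannot be told apart in any comparison. Of the B cell markers, Cd79a lay at 738 to 936 CPM in Spt5-depleted cells and at 704 to 805 CPM in WT, Ms4a1 at 517 to 610 CPM and 510 to 685 CPM, and Pax5 at 518 to 637 CPM and 549 to 657 CPM, so that the groups overlapped for these 3.

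Mitosis is run by cyclin-dependent kinase 1, which needs cyclin A or B, is restrained by the kinase WEE1 and is released by CDC25 phosphatases. Condensin and topoisomerase II compact and disentangle the chromosomes, the kinetochore ties each centromere to spindle microtubules and feeds the spindle checkpoint, and the anaphase-promoting complex then destroys cyclin B and securin so that sisters part and the cell divides. The genes for these proteins are transcribed together late in the cell cycle, largely through the MuvB core with B-MYB and FOXM1. Splenic B cells stimulated with lipopolysaccharide and interleukin 4 leave quiescence and divide repeatedly, which makes these mRNAs a common readout of proliferation.

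Mitosis genes were lower in Spt5-depleted cells far more often than higher. Of the 60 genes, 34 fell and 3 rose at an edgeR adjusted p under 0.05, while 30.6% of all tested genes fell and 31.8% rose. The share of the mitosis genes that fell was 56.7% and the share that rose was 5%, although the share called in either direction, 61.7%, was close to the 62.4% of all tested genes. Their median log2 fold change was -0.31, against 0.005 over all tested genes, and 53 of the 60 values were negative. Changes of at least 2-fold were few: 2 genes, Smc4 and Top2a, fell that far and 0 rose that far, against 7.63% and 9.87% of all tested genes. All 3 Spt5-depleted libraries lay below all 3 WT libraries for 36 genes, a pattern found in 33.3% of tested genes, and above them for 3 genes, against 34.2% of tested genes.

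**Figure D1:**
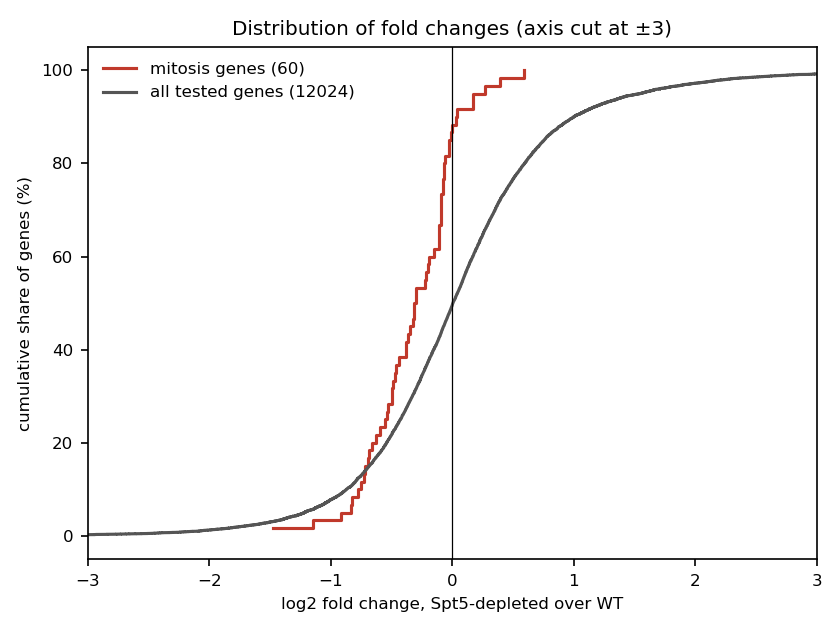
Cumulative share of genes (vertical axis, percent) by log2 fold change of Spt5-depleted over WT cells (horizontal axis) for the 60 mitosis genes and for all 12024 tested genes. The interquartile range of the mitosis genes ran between -0.54 and -0.08, and that of all tested genes between -0.43 and 0.46.

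The same counts were taken at like abundance. Among the 2295 tested genes whose mean level lay within the interquartile range of the mitosis genes' levels, 65.4 to 176 CPM, 765 fell, 700 rose and the median log2 fold change was -0.02. Summed over the 60 genes, the level was 7225, 7287 and 7588 CPM in the Spt5-depleted libraries, against 10038, 9928 and 9719 CPM in WT, so the Spt5-depleted sum was 74.4% of the WT sum. Without Mki67 and Top2a, both abundant, the sum of the other 58 was 78.6% of WT. Bulk counts cannot tell fewer mitotic cells from less of these mRNAs per cell. The result also depends on how libraries are scaled: with library totals alone the median of all genes moved to 0.16, the share of calls over all genes that were higher was 64.8%, against 50.9% with TMM scaling, and 25 mitosis genes fell and 5 rose around a median of -0.15. Some sums over markers of other cells stood apart between the groups, too. The 8 T cell markers summed to 18.3 to 37.1 CPM in Spt5-depleted cells and 40.6 to 43.3 CPM in WT. Of these 8 only Lck was called, at 12.1 to 17.9 CPM and 24.5 to 28.2 CPM, and the other 7 overlapped. The row name of Lck has an added tag, which may stand for overlapping genes. The 8 macrophage and monocyte markers summed to 107 to 187 CPM and 77.2 to 104 CPM. Mpeg1 held most of that sum, at 78.5 to 124 CPM and 53.6 to 76.9 CPM. Of the 7 tested, 5 were called higher and 0 lower, and the groups overlapped for 5. The part of such cells in the mitosis results was not tested. Erythroid precursors, which also divide in the spleen, left 0.67 to 1.13 CPM over 5 markers in Spt5-depleted cells and 0.29 to 0.86 CPM in WT. The other 4 of the 9 erythroid markers chosen, all globin genes, had no row among the deposited counts and could not be seen.

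Promoters of late cell cycle genes are known for the cell cycle genes homology region (CHR), which MuvB complexes bind, and for CCAAT boxes, which NF-Y binds. Both were searched on both strands in the RefSeq windows (build GRCm38.p6) from 250 bases before to 50 bases after each gene start, the CHR as TTTGAA and in its variant form TTCGAA and the box under its literal letters CCAAT. A window was at hand for 50 of the 60 genes, and 37 of them, 74%, held a CHR, against 45.2% of 84 further mitosis genes and 16.4% of 10275 genes of the deposited table. Within 50 bases before or after the start a CHR stood in 66% of the mitosis genes and in 4.23% of the genes of the deposited table, and a CCAAT box stood somewhere in the window in 72% and 42.7%. A CHR overlapped a CCAAT box in 1 of the 55 windows. Of the 37 genes with a CHR, 22 fell and 0 rose, with a median log2 fold change of -0.35. Of the 13 whose window held none, 5 fell and 1, Cenph, rose, with a median of -0.15. Foxm1 and Kif20a, the other genes that rose, and Smc4, the furthest fall, had no window and were not searched. These are descriptions of letters in a window, and the difference between both sets was not tested.

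**Figure D2:**
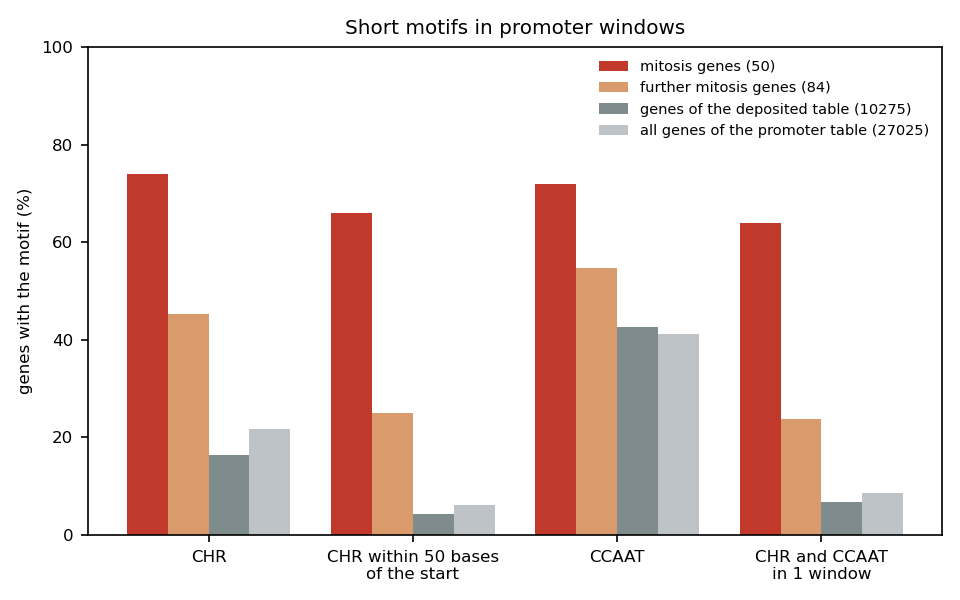
Share of genes (vertical axis, percent) whose promoter window holds each motif, for the mitosis genes, further mitosis genes, genes of the deposited table and all genes with a window, whose numbers stand in the legend. The red bars of the mitosis genes were the tallest of the 4 for every motif, at 74%, 66%, 72% and 64%.

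Promoters are shown for the 6 genes with the furthest changes among those that held a CHR and were named for the smallest p of their role or a 2-fold change, which leaves out Mki67 (matches 116 and 98 bases before the start). They run from 150 bases before to 30 bases after the start, 5′ to 3′ along the gene, to show where the motifs lie. Capitals mark CHR matches and CCAAT boxes on either strand. The windows lie at chr11:99024160-99024339, minus strand (Top2a), chr5:30666736-30666915, plus strand (Cenpa), chr2:131186798-131186977, plus strand (Cdc25b), chr19:34922208-34922387, plus strand (Kif20b), chr5:45669775-45669954, plus strand (Ncapg) and chr10:69352883-69353062, minus strand (Cdk1), all in GRCm38.p6 and not in the mm9 build of the counts.
Top2a: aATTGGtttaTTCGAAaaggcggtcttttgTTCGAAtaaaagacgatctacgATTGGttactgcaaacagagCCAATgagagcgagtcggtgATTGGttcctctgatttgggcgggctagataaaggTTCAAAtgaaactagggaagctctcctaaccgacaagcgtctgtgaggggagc
Cenpa: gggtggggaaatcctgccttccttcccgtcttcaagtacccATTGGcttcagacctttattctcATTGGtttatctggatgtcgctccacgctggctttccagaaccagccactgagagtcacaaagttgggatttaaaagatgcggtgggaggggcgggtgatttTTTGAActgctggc
Cdc25b: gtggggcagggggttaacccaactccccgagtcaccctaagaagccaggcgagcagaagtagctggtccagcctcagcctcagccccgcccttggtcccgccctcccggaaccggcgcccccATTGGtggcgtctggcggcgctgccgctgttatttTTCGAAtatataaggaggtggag
Kif20b: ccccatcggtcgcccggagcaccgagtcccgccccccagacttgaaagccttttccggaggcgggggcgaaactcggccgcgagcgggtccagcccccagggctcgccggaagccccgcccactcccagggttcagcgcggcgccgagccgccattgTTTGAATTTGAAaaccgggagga
Ncapg: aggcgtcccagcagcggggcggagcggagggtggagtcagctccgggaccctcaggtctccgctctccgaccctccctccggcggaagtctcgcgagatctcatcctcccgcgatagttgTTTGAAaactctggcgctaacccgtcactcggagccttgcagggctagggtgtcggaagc
Cdk1: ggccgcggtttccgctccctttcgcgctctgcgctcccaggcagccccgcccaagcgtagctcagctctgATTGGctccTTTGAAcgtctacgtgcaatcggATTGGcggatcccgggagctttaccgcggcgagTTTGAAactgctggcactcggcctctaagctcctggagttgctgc
Top2a had 3 CHR matches and 4 CCAAT boxes in the stretch shown, the match nearest the start beginning 23 bases before it. In Kif20b 2 matches stood side by side from 7 bases after the start with no CCAAT box, and in Cdc25b and Cenpa the single match began 7 and 16 bases after it. In Ncapg it began 30 bases before the start, and Cdk1 had matches 71 and 15 bases before it.

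Among the regulators, the Spt5-depleted cells had less mRNA for the kinase that drives mitosis, for its activating phosphatases Cdc25b and Cdc25c and for Cdc20 and Ube2c, which act with the anaphase-promoting complex, and more for the transcription factor Foxm1. Of 14 regulators 8 fell and 1 rose, with a median log2 fold change of -0.31. Cdc25b, a phosphatase that activates CDK1, had 93.1, 86.1 and 90.4 CPM in the Spt5-depleted libraries, against 174, 158 and 149 CPM in WT. The groups stood well apart, and the log2 fold change was -0.84 ± 0.09 (SE; edgeR adjusted p = 1.36e-06). Cdk1 itself had 96.5, 108 and 91.7 CPM in Spt5-depleted cells, against 145, 169 and 174 CPM in WT (log2 fold change -0.72 ± 0.10 SE, adjusted p = 1.51e-05). Each Spt5-depleted library was below each WT library. Cdc20, which activates the anaphase-promoting complex, had 78.7, 74.0 and 73.6 CPM in Spt5-depleted cells and 106, 119 and 133 CPM in WT (log2 fold change -0.66 ± 0.09 SE, adjusted p = 2.69e-05).

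Ube2c, the ubiquitin-conjugating enzyme of that complex, and Plk1, a kinase with roles from mitotic entry to cytokinesis, fell by 0.55 and 0.53 on the log2 scale. The cyclins changed less than their kinase: Ccnb2 fell by 0.31, Ccna2 fell by 0.30, and Ccnb1 stood at -0.20 (adjusted p = 0.0502), with 229, 233 and 217 CPM in Spt5-depleted libraries, against 276, 249 and 254 CPM in WT. Ccnb1 is thus just outside the threshold, and it was called lower in the authors' deposited table (adjusted p = 0.0385), the 1 gene of the 60 whose call differed there. Cdc25c, a further CDK1 phosphatase, fell by 0.33. With library totals alone the calls of Ccnb2, Ccna2 and Cdc25c were lost.

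Foxm1, a transcription factor that promotes expression of G2 and M phase genes, was the highest of the 3 genes that rose. It had 120, 116 and 131 CPM in the Spt5-depleted libraries, against 83.3, 81.2 and 79.8 CPM in WT, all Spt5-depleted values being higher (log2 fold change 0.59 ± 0.08 SE, adjusted p = 2.67e-05). Its row name has an added tag, which may stand for overlapping genes. In RefSeq (GRCm38.p6) the overlapping gene is Tex52, which was not among the tested genes. The rows of Cdc20, Ccna2, Mybl2 and the spindle gene Nusap1 have the tag as well. Cdc20 overlaps Elovl1 in RefSeq, whose own row rose by 0.27 on the log2 scale. Mybl2, the gene of B-MYB, which acts with MuvB before FOXM1, stood at -0.15 ± 0.10 (SE; adjusted p = 0.21). The remaining regulators did not pass: Pttg1, encoding securin, at 0.17, Melk, a kinase abundant in dividing cells, at -0.08 and Espl1, encoding separase, at -0.06.

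**Figure D3:**
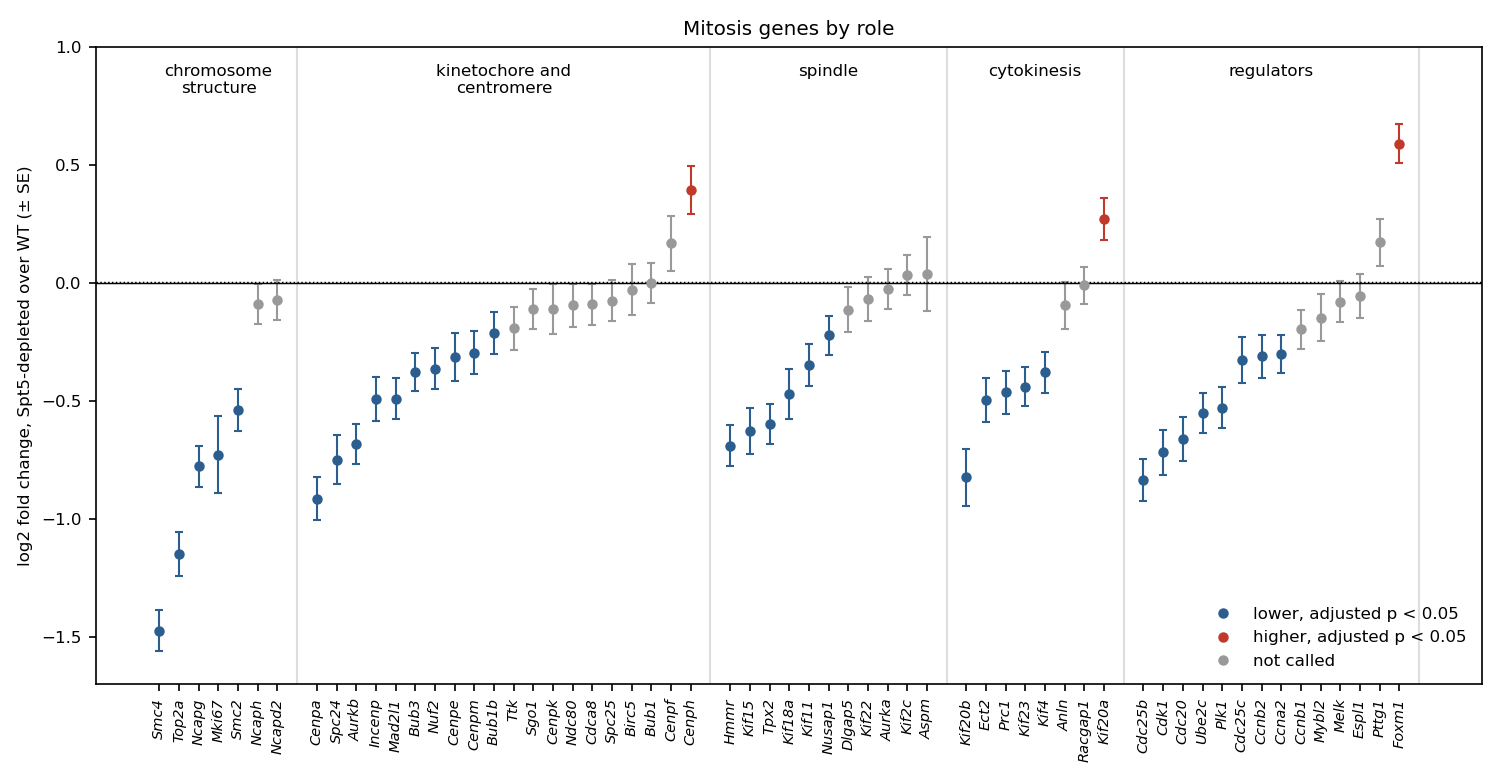
Log2 fold change of Spt5-depleted over WT cells (vertical axis, ± SE) for each of the 60 mitosis genes (horizontal axis), grouped by role and coloured by the edgeR call. Smc4 is the lowest at -1.48 and Foxm1 the highest at 0.59, and blue points of genes that fell stand in all 5 groups.

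Genes of chromosome structure held the furthest falls. Of 7, 5 fell and 0 rose, with a median log2 fold change of -0.73. Smc4, an ATPase core subunit shared by both condensins, had 117, 128 and 133 CPM in the Spt5-depleted libraries, against 362, 356 and 334 CPM in WT. The Spt5-depleted mean was 36% of the WT mean, and the log2 fold change was -1.48 ± 0.09 (SE; edgeR adjusted p = 3.87e-09). Top2a, the topoisomerase that resolves tangled sister chromatids, had 271, 285 and 307 CPM in Spt5-depleted cells, against 701, 592 and 621 CPM in WT (log2 fold change -1.15 ± 0.09 SE, adjusted p = 8.98e-08). Its Spt5-depleted mean was 45% of its WT mean. Ncapg, a non-SMC subunit of condensin I, had 49.9, 54.0 and 53.3 CPM in Spt5-depleted cells, against 95.9, 84.8 and 89.0 CPM in WT (log2 fold change -0.78 ± 0.09 SE, adjusted p = 2.55e-06). Its row is marked for overlap, in RefSeq with Lcorl, whose own row rose by 1.06 on the log2 scale.

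Mki67, which coats mitotic chromosomes and is widely used as a marker of dividing cells, varied more between libraries. It had 569, 593 and 824 CPM in Spt5-depleted libraries 1, 2 and 3, against 1153, 1253 and 886 CPM in WT libraries 1, 2 and 3. The groups did not overlap, but Spt5-depleted library 3 came close to WT library 3, and the fold change of -0.73 had the widest error of the 60, 0.16 (adjusted p = 0.00333). Smc2, the partner ATPase of Smc4, fell by 0.54, and Ncapd2 and Ncaph, further condensin I subunits, stood at -0.07 and -0.09 (adjusted p = 0.47 and 0.371).

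At the kinetochore and centromere 10 of 20 genes fell and 1 rose, with a median of -0.20. Cenpa, the histone H3 variant that marks centromeres, had 135, 119 and 119 CPM in the Spt5-depleted libraries, against 216, 239 and 249 CPM in WT. All Spt5-depleted values were lower, with a log2 fold change of -0.92 ± 0.09 (SE; adjusted p = 8.13e-07). Aurkb, the kinase of the chromosomal passenger complex, had 85.8, 90.6 and 91.1 CPM in Spt5-depleted cells, against 132, 151 and 147 CPM in WT (log2 fold change -0.68 ± 0.09 SE, adjusted p = 7.52e-06). Spc24, of the microtubule-binding NDC80 complex, had 22.3, 22.3 and 24.2 CPM in Spt5-depleted cells, against 36.8, 35.7 and 43.4 CPM in WT (log2 fold change -0.75 ± 0.10 SE, adjusted p = 1.83e-05). For both genes the groups stood apart.

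Cenph, a subunit of the inner kinetochore, was the 1 kinetochore gene that rose, with 31.6, 34.1 and 29.5 CPM in Spt5-depleted cells, against 22.5, 26.7 and 23.3 CPM in WT (log2 fold change 0.39 ± 0.10 SE, adjusted p = 0.00406). The passenger scaffold Incenp and the checkpoint protein Mad2l1 each fell by 0.49, the checkpoint adaptor Bub3 by 0.38 and the NDC80 subunit Nuf2 by 0.36. Cenpe, a kinetochore kinesin, Cenpm, of the inner kinetochore, and Bub1b, the checkpoint kinase BUBR1, fell by 0.31, 0.30 and 0.21. These 3 calls, and that of Nuf2, were lost with library totals alone, and those of Cenpe, Cenpm and Bub1b also without single libraries. Of the 9 that did not pass, Ttk, the checkpoint kinase MPS1, was lowest at -0.19 (adjusted p = 0.0741) and Cenpf, a large kinetochore-associated protein, highest at 0.17, with Sgo1, protector of centromeric cohesion, at -0.11 and the inner kinetochore gene Cenpk, whose row is marked for overlap, also at -0.11.

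**Figure D4:**
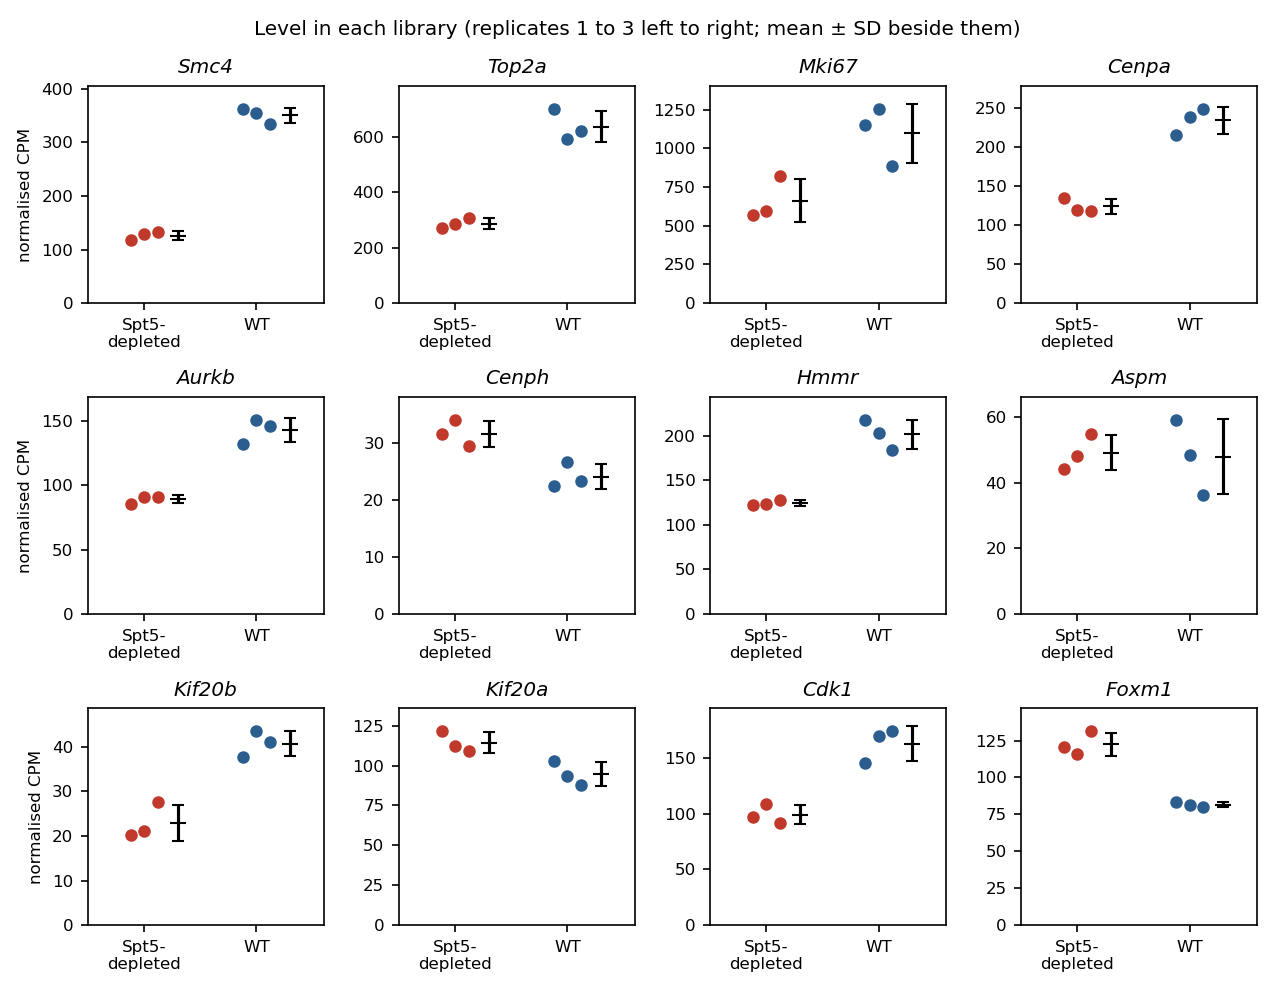
Normalised level (vertical axes, CPM, from 0) of 12 genes in each Spt5-depleted library (red, left) and WT library (blue, right), with mean ± SD beside the points. The groups stand apart for 11 genes, Cenph, Kif20a and Foxm1 being higher in Spt5-depleted cells, and overlap for Aspm.

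Among spindle genes 6 of 11 fell and 0 rose, with a median of -0.22. Hmmr, a spindle assembly factor, had 122, 123 and 128 CPM in the Spt5-depleted libraries, against 217, 203 and 184 CPM in WT. The 3 Spt5-depleted values were close to each other and all lower (log2 fold change -0.69 ± 0.09 SE, edgeR adjusted p = 8e-06). Tpx2, which activates Aurora A on the spindle, had 185, 203 and 202 CPM in Spt5-depleted cells, against 292, 284 and 317 CPM in WT (log2 fold change -0.60 ± 0.09 SE, adjusted p = 2.64e-05). Aurka, the gene of that kinase, had 131, 135 and 130 CPM in Spt5-depleted cells and 142, 123 and 138 CPM in WT, overlapping values with a log2 fold change of -0.03 ± 0.09 (SE; adjusted p = 0.804). Kif15, a motor that helps hold the poles apart, had 65.2, 66.4 and 79.3 CPM in Spt5-depleted cells, against 118, 106 and 102 CPM in WT (log2 fold change -0.63 ± 0.10 SE, adjusted p = 6.32e-05). Kif18a, which limits microtubule length, Kif11, the main bipolarity motor, and Nusap1, a microtubule bundler, fell by 0.47, 0.35 and 0.22, and the last 2 of these calls were lost with library totals alone. The other spindle genes not called were Dlgap5, a kinetochore fibre protein, at -0.11, Kif22, a chromosome-arm motor, at -0.07, and Kif2c, a microtubule depolymerase, at 0.03. Aspm, a spindle pole protein, stood at 0.04 with a wide error of 0.16.

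Of 8 cytokinesis genes 5 fell and 1 rose, with a median of -0.41. Kif20b had 20.2, 21.0 and 27.6 CPM in the Spt5-depleted libraries, against 37.8, 43.5 and 41.0 CPM in WT (log2 fold change -0.83 ± 0.12 SE, edgeR adjusted p = 3.01e-05). Its relative Kif20a, a motor of the central spindle, had 122, 112 and 109 CPM in Spt5-depleted cells, against 103, 93.6 and 87.5 CPM in WT (log2 fold change 0.27 ± 0.09 SE, adjusted p = 0.0158). Both groups stood apart in each gene, in opposite directions. The call of Kif20a was lost without Spt5-depleted library 1 (log2 fold change 0.22, adjusted p = 0.0912), and its row is marked for overlap, in RefSeq with Brd8 and Cdc23, whose rows fell by 1.05 and 0.21.

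Ect2, the exchange factor that activates RhoA at the cleavage furrow, had 62.5, 67.8 and 64.2 CPM in Spt5-depleted cells, against 96.3, 97.8 and 80.4 CPM in WT (log2 fold change -0.50 ± 0.09 SE, adjusted p = 0.000353). Kif23, the motor of centralspindlin, had 103, 97.8 and 112 CPM in Spt5-depleted cells, against 142, 141 and 142 CPM in WT (log2 fold change -0.44 ± 0.08 SE, adjusted p = 0.000364). No Spt5-depleted library of either gene reached the WT range. Prc1, which bundles midzone microtubules, and the X-linked Kif4, a chromosome and midzone motor, fell by 0.46 and 0.38. Anln, a furrow scaffold, and Racgap1, the partner of KIF23 in centralspindlin, stood at -0.09 and -0.01 (adjusted p = 0.423 and 0.914).

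Genes for subunits of 1 complex had unequal fold changes, a pattern chosen after the values were seen. Counts of 2 genes in the same library share its depth, so their ratio does not depend on the scaling. In condensin I the ratio of Smc4 to Ncapd2 counts was 0.458, 0.481 and 0.5 in the Spt5-depleted libraries, against 1.23, 1.39 and 1.2 in WT, a 2.65-fold lower ratio. Against Smc2, its direct partner, Smc4 stood at 0.881, 0.914 and 0.850 in Spt5-depleted cells and at 1.66, 1.69 and 1.71 in WT. The ratio of Ncaph to Ncapd2 was 0.453, 0.447 and 0.462 in Spt5-depleted cells and 0.398, 0.530 and 0.460 in WT, and its groups overlapped. The exact two-sided permutation p was 0.10 for both Smc4 ratios, the smallest that 3 against 3 libraries allow, and 0.80 for the last ratio.

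Ratios in the other complexes are given in the same manner. In the chromosomal passenger complex Aurkb and Incenp fell, while Birc5, encoding survivin, and Cdca8, encoding borealin, stood at -0.03 and -0.09. Aurkb counts were 0.391, 0.416 and 0.457 of Birc5 counts in Spt5-depleted libraries, against 0.710, 0.727 and 0.572 in WT. In the NDC80 complex Spc24 and Nuf2 fell, while Ndc80 and Spc25 stood at -0.10 and -0.08. The ratio of Spc24 to its dimer partner Spc25 was 0.298, 0.316 and 0.341 in Spt5-depleted cells, against 0.460, 0.501 and 0.564 in WT. The checkpoint kinase Bub1 was at -0.001 beside Bub3 at -0.38, with Bub3 to Bub1 ratios of 1.58, 1.51 and 1.42 in Spt5-depleted cells, against 1.75, 1.99 and 2.13 in WT. In centralspindlin the ratio of Kif23 to Racgap1 was 0.793, 0.736 and 0.845 in Spt5-depleted cells, against 1.08, 1.08 and 1.04 in WT. In none of these 4 ratios did the groups overlap, and each had an exact p of 0.10, the smallest possible. In all 26 pairs were computed in 5 complexes, and the groups did not overlap in 22 of them. The direction of a ratio follows from which gene was put on top. Ratios of genes outside these complexes were not computed, so the 22 have no share of other ratios beside them. For the levels of single genes, groups that do not overlap are common over all tested genes (33.3% below and 34.2% above). Nothing particular to complex partners is therefore read from these ratios.

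**Figure D5:**
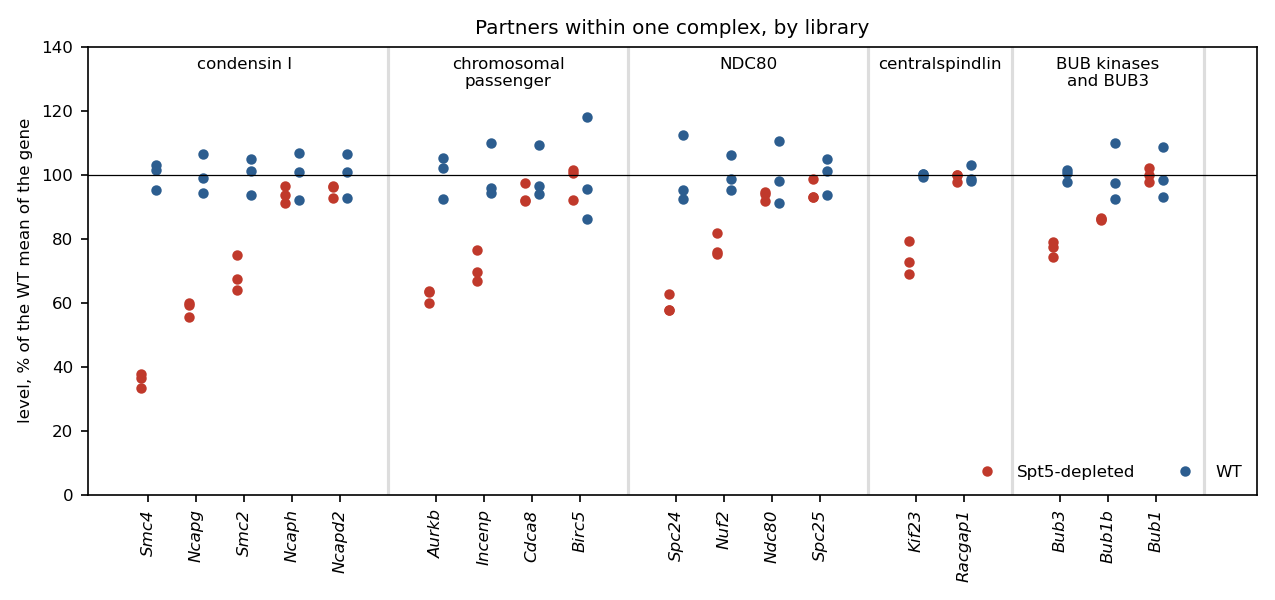
Level of each gene in each library (vertical axis, percent of the gene's WT mean) for 5 complexes, Spt5-depleted libraries in red and WT libraries in blue. Genes stand in order of their log2 fold change within each complex, so a climb of the red points is set by that order. In condensin I Smc4 comes first, with a Spt5-depleted mean of 36% of WT, and Ncapd2 last, with overlapping red and blue points.

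Of 104 further genes of mitosis, listed by role, 35 fell and 25 rose, with a median log2 fold change of -0.05. These shares, 33.7% and 24%, stand beside 30.6% and 31.8% of all tested genes. The mitotic entry and exit kinases and phosphatases had 7 of 14 genes higher and 3 lower. Wee1, the kinase that holds CDK1 inactive, had 109, 108 and 106 CPM in the Spt5-depleted libraries, against 43.4, 40.6 and 39.3 CPM in WT (log2 fold change 1.39 ± 0.08 SE, edgeR adjusted p = 6.02e-09). Pbk, a mitotic kinase also called TOPK, had 87.2, 94.3 and 74.4 CPM in Spt5-depleted cells, against 28.5, 28.0 and 28.7 CPM in WT (log2 fold change 1.59 ± 0.10 SE, adjusted p = 8.2e-09). Both rises were larger than any among the 60 genes. Cdc14b, a phosphatase, and Cdc25a, a CDK-activating phosphatase, fell by 0.85 and 0.51. The row of Cdc25a is marked for overlap.

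Of 17 subunits and partners of the anaphase-promoting complex 8 fell, with Ube2s, which extends its ubiquitin chains, at -0.51 and Anapc15 at -0.53, and 6 rose, with the small subunits Anapc11 at 0.61 and Anapc13 at 0.61. Of 14 cohesin genes 5 fell, among them the ring subunits Smc1a (-0.57) and Smc3 (-0.55), and 3 rose, among them the loader Mau2 (0.43) and the acetyltransferase Esco2 (0.46). Of 27 further kinetochore genes 11 fell, with Cenpn at -0.68 and Ska1, which follows microtubule ends, at -0.60, and 6 rose, with Mis12 at 0.65 and Cenpl at 0.49. The 3 subunits particular to condensin II had 0 calls, with values from -0.21 to -0.12.

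Of 17 centrosome and spindle pole genes 6 fell and 2 rose. Cep152, a centriole duplication scaffold, stood at -0.95, Pcnt, the pericentriolar scaffold, at -1.03, Kif18b, a kinesin, at 0.29 and Stil, a centriole duplication factor, at 0.30. The row of Pcnt is marked for overlap, and its WT libraries spread widely, at 96.86, 75.89 and 56.65 CPM. Among 12 genes for the MuvB core and its partners 9 were not called, 2 fell, E2f4 (-0.62) and Tfdp1 (-0.29), and 1 rose, the pocket protein Rbl1 (0.39). Whether any of these lists differed from the 60 genes was not tested.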

How the data were processed

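Poly(A) RNA came from a Trizol extraction, per the labels' protocols, and libraries were made with a Lexogen SENSE kit. Tools in the submitters' processing notes are TopHat, Bowtie2 2.1.0, cutadapt 1.10, DESeq2 1.10.1 and featureCounts 1.5.0-p1, with the build mm9. What each did, the annotation, the strand setting and the treatment of multi-mapping reads were not given in the sources used here. Whole read counts per gene, not normalised by the authors, were deposited for 6 libraries. Log2 fold changes and adjusted p-values from the authors' own test stand beside them and are used only where that table is named. Rows have at least 10 counts in all. A suffix that may mark gene overlap is on 2005 rows, 8 of them mitosis genes (Ncapg, Kif20a, Cenpk, Foxm1, Cdc20, Ccna2, Mybl2 and Nusap1). The 18 samples of other assays were not analysed here.

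The count test was edgeR 4.0.16 under R 4.3.3: filterByExpr, TMM scaling, which assumes that most genes keep their level, and the robust quasi-likelihood F test, two-sided, with Benjamini-Hochberg adjustment over 12024 genes and a threshold of 0.05. The biological coefficient of variation was 0.098. SEs were derived from the F statistic. DESeq2 1.42.0 and limma 3.58.1 (voom) gave alternatives. Within groups all pairs of libraries differed beyond sampling noise. The chi-square per degree of freedom was 6.36 to 10.7 in Spt5-depleted pairs and 27.6 to 32.5 in WT pairs. Same-numbered libraries of both groups did not deviate together (r = 0.03, -0.05 and -0.03).

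Members, role lists and further lists were chosen with earlier results of these data known. Values per library are given for up to 3 fallen and 2 risen genes of each role with the smallest p and for called 2-fold changes, plus genes chosen after their values were seen (Mki67, Ccnb1, Aurka). Of the further lists, up to 2 per direction are named. Levels are not compared between genes, because they are not per length. 1 B cell marker, and the sum over the B cell markers, are not reported here.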

Additional observations from a re-analysis of the deposited data

How the results depend on the processing

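Of the 37 called mitosis genes 27 kept direction and call under all 15 alternatives, 25 of the 34 that fell and 2 of the 3 that rose, and 0 changed sign. The 10 whose call was lost under at least 1 alternative are Bub1b, Nuf2, Cenpe, Cenpm, Kif11, Nusap1, Kif20a, Ccna2, Ccnb2 and Cdc25c. Between 25 and 35 mitosis genes were lower and between 2 and 5 higher: library totals alone gave 25 and 5, an adjusted p under 0.01 gave 30 and 2, and DESeq2's Wald test and limma-voom each gave 35 and 3. Leaving out 1 library gave 30 to 35 lower and 2 to 4 higher. The replicate number as a block gave 32 and 3 and lost the calls of Bub1b and Nusap1; the labels tie these numbers to no shared mouse or batch. Genes not called changed sign more readily. With library totals alone the log2 fold changes of 17 turned positive, at Ncapd2 0.0874, Ncaph 0.0694, Birc5 0.13, Cdca8 0.0687, Bub1 0.16, Ndc80 0.0634, Spc25 0.0833, Cenpk 0.0501, Sgo1 0.0485, Aurka 0.13, Kif22 0.0905, Dlgap5 0.0467, Anln 0.0664, Racgap1 0.15, Mybl2 0.0115, Espl1 0.10 and Melk 0.0800. The sign also turned for Bub1 0.0118 and Racgap1 0.0009691 with upper-quartile factors; Bub1 0.009122 with mean of at least 5 CPM; Bub1 0.001341 with limma-voom; Bub1 0.001324 with the replicate number as a block. Leaving out 1 library in turn gave ranges that cross 0 for Birc5 -0.13 to 0.10, Bub1 -0.0560 to 0.0569, Aurka -0.0918 to 0.009552, Kif22 -0.15 to 0.0112, Kif2c -0.006943 to 0.0736, Aspm -0.13 to 0.21, Racgap1 -0.0298 to 0.007763 and Espl1 -0.11 to 0.0149. The cause was not tested. Ccnb1 (adjusted p = 0.0502) and Bub1b (0.0455) lie nearest the threshold. Scaling to library size hides any change common to all mRNAs.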

Other observations

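Spt5-depleted library 3 was the highest of its group in 30 of the 60 genes, and WT library 3 was the lowest of its own in 22. Both held in 14 genes, a pattern noticed after the values were seen. The share over all tested genes was not counted, so nothing particular to the mitosis genes is read from this number. Of the 14, 3 are given here. Cenpf had 58.3, 55.2 and 70.1 CPM in the Spt5-depleted libraries and 62.5, 54.1 and 47.1 CPM in WT. Aspm had 44.3, 48.2 and 55.0 CPM in Spt5-depleted cells and 59.1, 48.6 and 36.3 CPM in WT. Cenpe had 94.3, 102 and 121 CPM in Spt5-depleted cells and 134, 140 and 121 CPM in WT, the 1 gene called lower whose groups overlapped. Smc4, Foxm1 and Mki67 are among the 14 as well. The coefficient of variation within a group had a median over the 60 genes of 4.93% in Spt5-depleted and 7.55% in WT libraries, and it was lower in Spt5-depleted libraries for 43 genes. Its share over all tested genes was not counted. Over all tested genes, too, Spt5-depleted libraries differed less from each other (chi-square per degree of freedom 6.36 to 10.7) than WT libraries (27.6 to 32.5). Nothing particular to the mitosis genes is therefore read from it.

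Across the 60 genes, log2 fold change and log2 mean level had a Pearson r of -0.31 and a Spearman rho of -0.27, a description over genes that share the same 6 libraries.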
